A study of Mus musculus with 10 samples.

Results

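The Rab GTPases were followed in sorted mouse retinal cells as the genes whose symbol was Rab, a number and at most 1 letter and 1 further digit. The rule found 59 of the 21869 genes of the table. It takes the family whole, so Rabs of the Golgi, the secretory granules and the cilium stood beside those of the endosomes. Messenger RNA had been sequenced in 10 libraries of live CD11b+ CD45int cells, which the labels call microglia. CD36-positive cells (libraries 1, 2, 3, 4 and 7) were the part of that gate that stained for CD36, a scavenger receptor for oxidised lipids and long-chain fatty acids, and CD36-negative cells (libraries 1, 2, 4, 7 and 8) the part that did not. The titles give all 10 samples as WT. The series' protocol describes intravenous sodium iodate at 20 mg/kg, an oxidant that injures the retinal pigment epithelium, or PBS, with eyes taken on day 7, but the labels do not say which injection the mice behind these libraries received. Neither age nor sex is given, nor whether a library came from 1 mouse or from a pool. The p-values therefore measure the spread between these samples, which may be partly technical.

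Rab proteins are small GTPases that switch between a GDP-bound form kept in the cytosol and a GTP-bound form on a membrane, where they recruit tethers, motors and lipid kinases. Guanine nucleotide exchange factors (GEFs) turn them on, GTPase-activating proteins (GAPs) turn them off, and a prenyl tail anchors them. Each compartment carries its own set. In a phagocyte, Rab5 on a new phagosome gives way to Rab7 before fusion with lysosomes, and Rab11 returns receptors to the surface.

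The table held 5001692 to 13250984 counts per library. Cd36 mRNA stood at 170 to 255 CPM (counts scaled to the library total) in CD36-positive libraries and at 41.8 to 55.3 CPM in CD36-negative libraries. The 10 microglial markers summed to 7080 to 16300 CPM in CD36-positive libraries and 7230 to 17200 CPM in CD36-negative libraries, and 0 of them passed the test (2 at an unadjusted p under 0.05, and 0 by DESeq2 or limma). Other leukocyte markers went the opposite way to Cd36. Dendritic cell markers summed to 82.9 to 163 CPM in CD36-positive libraries against 923 to 1400 CPM in CD36-negative libraries (13 of 14 lower), and monocyte markers to 507 to 990 CPM in CD36-positive libraries against 1410 to 2460 CPM in CD36-negative libraries (10 of 14 lower). Neutrophil markers summed to 85 to 192 CPM in CD36-positive libraries, with Retnlg, Ly6g and Ngp at 0 in all 5, against 341 to 888 CPM in CD36-negative libraries (7 of 9 lower). T and NK cell markers summed to 14 to 71.9 CPM in CD36-positive libraries, with Prf1 at 0 in all 5, against 207 to 691 CPM in CD36-negative libraries (8 of 8 lower). On principal components of log2 CPM, CD36-positive libraries 1 and 3 stood apart from the other libraries of their group.

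Most Rab mRNAs differed little between CD36-positive and CD36-negative cells. Together the 59 genes summed to 3910 ± 218 CPM in CD36-positive libraries and 3860 ± 270 CPM in CD36-negative libraries (SD, n = 5 each), which was 0.361 to 0.401% of all counts in CD36-positive libraries and 0.345 to 0.421% in CD36-negative libraries. Of the 59, 47 passed the filter on low counts and 12 did not. In edgeR's quasi-likelihood test with Benjamini-Hochberg adjustment over 11596 genes, 3 of the 47 passed an adjusted p of 0.05: Rab7b and Rab9 were higher in CD36-positive cells and Rab43 was lower. Of all genes tested, 853 passed (7.36%), with 303 higher (2.61%) and 550 lower (4.74%), against 6.38% of the Rab genes, so the number of Rab genes that passed is not by itself a result about the family. At an unadjusted p under 0.05 the counts were 8 of 47 Rab genes (17.0%) and 2472 of all genes (21.3%). The median log2 fold change (positive where CD36-positive cells were higher) was -0.09 over the 47 Rab genes and 0.02 over all genes. As many as 36 of the 47 lay within 0.5 log2 of no difference (76.6%, against 64.9% of all genes tested), and for 26 of the 47 the whole 95% interval lay within 1 log2, a 2-fold change either way. In sorted populations, a smaller number of cells of a type that uses a gene and less of its RNA per cell cannot be told apart.

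**Figure D1:**
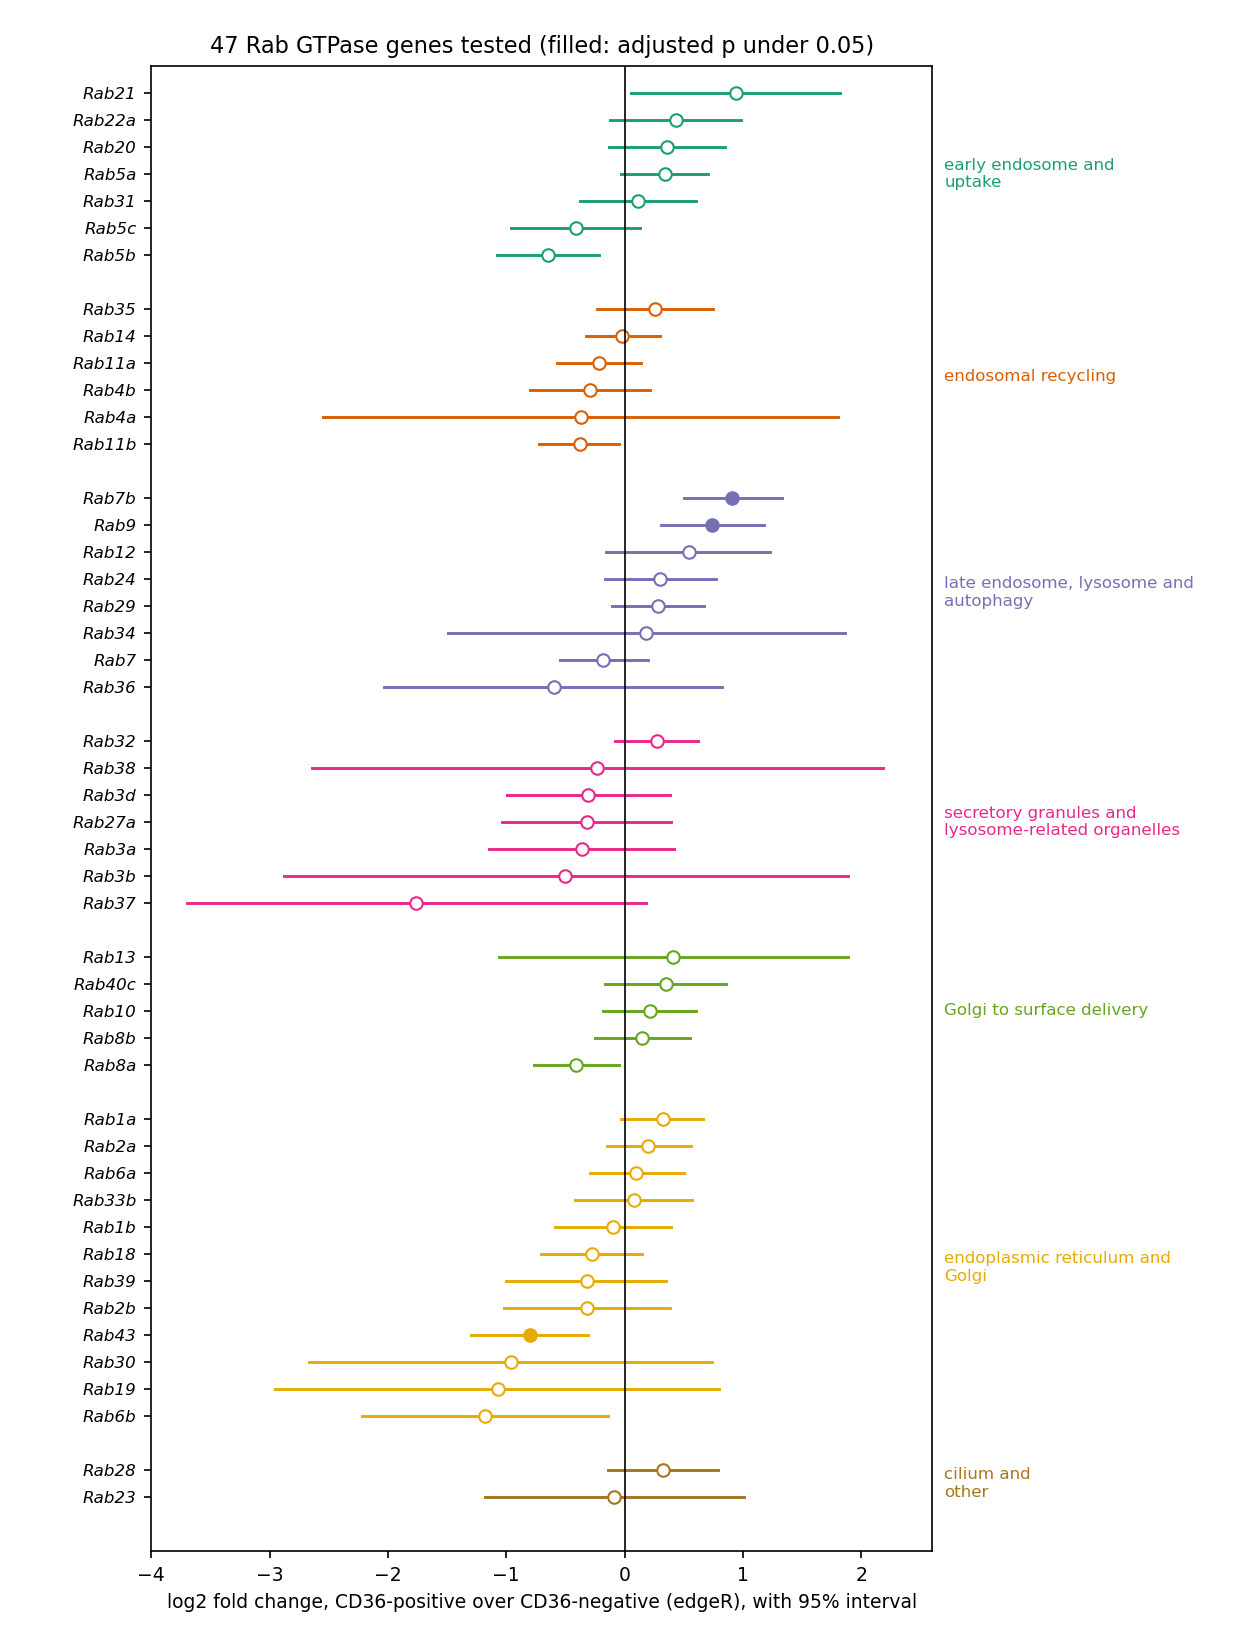
Log2 fold change (x axis, CD36-positive over CD36-negative, edgeR) with its 95% interval for the 47 Rab genes tested, grouped by the compartment each is known for; filled points passed an adjusted p of 0.05. Rab7b and Rab9 lie to the right at 0.91 and 0.74, Rab43 lies to the left at -0.80, and most other intervals cross 0.

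Per length of exon, the Rab genes spanned a wide range. In mean CPM per kb over the 10 libraries, Rab7 of late endosomes came first at 136, followed by Rab32 of lysosome-related organelles at 95.8, Rab1a of transport out of the endoplasmic reticulum at 89.5 and Rab11a of recycling endosomes at 85.4. Rab2a (66.2), Rab1b (65.6), Rab24 (53.3) and Rab20 (51.5) completed the first 8. Rab7 held 128 CPM per kb in CD36-positive libraries and 145 in CD36-negative libraries, Rab32 held 105 in CD36-positive and 86.8 in CD36-negative libraries, Rab1a held 99.3 in CD36-positive and 79.7 in CD36-negative libraries, and Rab11a held 79.0 in CD36-positive and 91.8 in CD36-negative libraries. Among the first 8, in that order, each gene and the next overlapped within their SDs in CD36-positive libraries. In CD36-negative libraries they did so except for Rab7, which stood above Rab32, and Rab11a, which stood above Rab2a. Rab11a came below Rab32 and Rab1a in CD36-positive libraries and above both in CD36-negative libraries. None of the first 8 passed the test between groups. Rab14, between Golgi and endosomes, had the most reads of all 59 genes, 448 ± 53.8 CPM in CD36-positive libraries and 453 ± 19.6 CPM in CD36-negative libraries. Divided by the 13589 bases of all its annotated exons together, it came behind 9 others, at 33 CPM per kb in CD36-positive libraries and 33.3 in CD36-negative ones. By compartment, endoplasmic reticulum and Golgi Rabs made up 26.2% of the per-length total in CD36-positive and 26.3% in CD36-negative libraries, late endosomal and lysosomal Rabs 24.6% in CD36-positive and 23.2% in CD36-negative libraries. Recycling Rabs made up 14.8% in CD36-positive and 17.4% in CD36-negative libraries, and early endosomal Rabs 12.7% in CD36-positive and 12.2% in CD36-negative libraries.

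**Figure D2:**
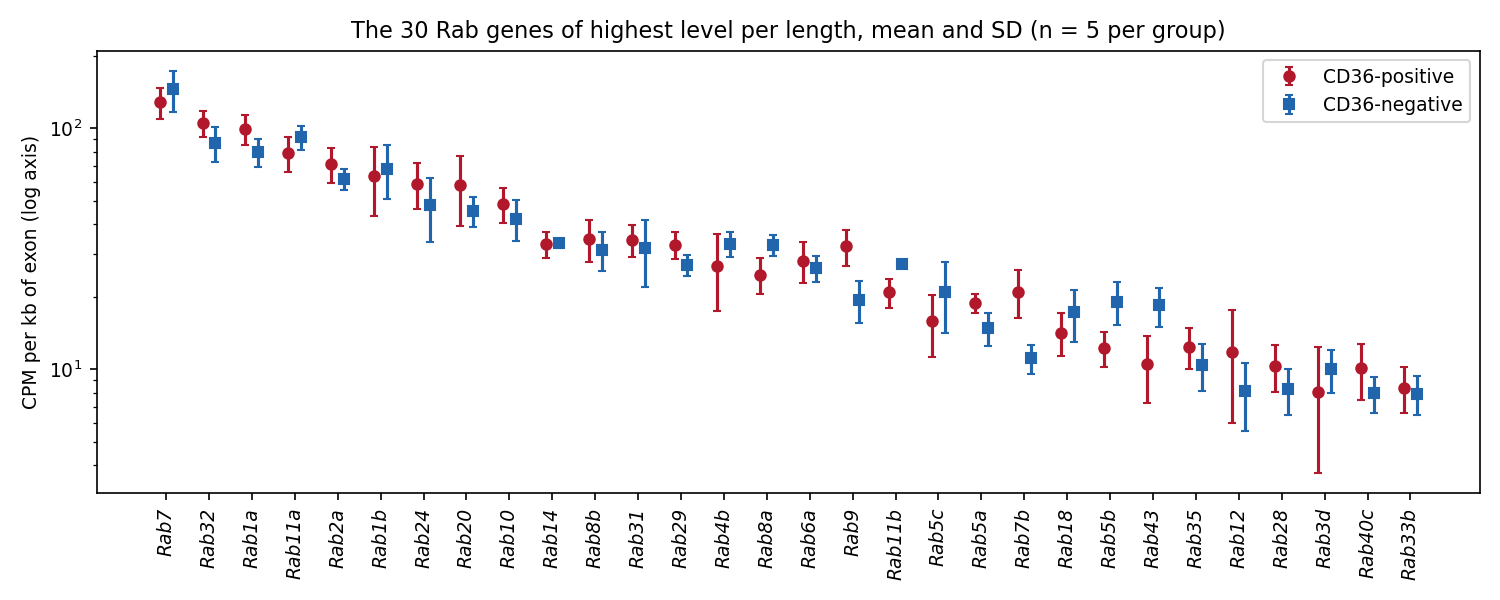
Mean level and SD (CPM per kb of exon, log axis, n = 5 libraries per group) of the 30 Rab genes highest per length, CD36-positive as circles and CD36-negative as squares, ordered by the mean over all libraries. Rab7 leads with 128 in CD36-positive and 145 in CD36-negative libraries, and the called genes are Rab7b and Rab9, higher in CD36-positive libraries, and Rab43, lower in them.

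Of the 3 called genes, 2 were among the 8 late endosomal and lysosomal Rabs tested, a share that was not tested. Of these 2, Rab7b kept its call best. Rab7b, known in mouse macrophages for sending Toll-like receptors to lysosomes and in human cells for return traffic from endosomes to the Golgi, lies on chromosome 1 (GRCm38, chr1:131688695-131715439, plus strand). Its mRNA stood at 92.3, 128, 109, 81.1 and 74.3 CPM in CD36-positive libraries 1, 2, 3, 4 and 7, against 60.4, 43.2, 53.1, 45.2 and 55.2 CPM in CD36-negative libraries 1, 2, 4, 7 and 8. Each CD36-positive library lay above each CD36-negative library. The log2 fold change was 0.91 (SE 0.20, 95% interval 0.50 to 1.33, edgeR adjusted p = 0.0079), and the call stayed when any 1 library was left out.

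Rab9, which returns mannose 6-phosphate receptors from late endosomes to the Golgi, lies on chromosome X (chrX:166457253-166479867, minus strand). It measured 43.5, 70.2, 57.0, 53.4 and 59.1 CPM in CD36-positive libraries, against 30.5, 39.0, 29.4, 43.0 and 27.3 CPM in CD36-negative libraries. The groups did not overlap, but the lowest CD36-positive library (43.5) and the highest CD36-negative library (43.0) nearly met. The log2 fold change was 0.74 (SE 0.21, 95% interval 0.31 to 1.18, edgeR adjusted p = 0.0368). With 1 library left out (number 2, 3, 4 or 7 of the CD36-positive group, or number 1, 2, 4 or 8 of the CD36-negative group) the adjusted p was 0.0505 to 0.119, with log2 fold changes of 0.64 to 0.80.

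Rab7b and Rab9 were the 2 of 47 Rab genes (4.26%) whose CD36-positive libraries all lay above the CD36-negative ones, beside 2.59% of all genes tested, and Rab11b was the 1 of 47 (2.13%) with all CD36-positive libraries below, beside 5.83% of all genes. Of the 8 late endosomal and lysosomal Rabs tested, the other 6 did not pass. Rab7 itself, the main late endosomal Rab, read 253, 345, 373, 330 and 372 CPM in CD36-positive libraries, against 393, 263, 421, 360 and 452 CPM in CD36-negative libraries. These ranges overlapped widely, and the log2 fold change was -0.18 (95% interval -0.55 to 0.20, adjusted p = 0.63). Rab24, an autophagy Rab, averaged 119 ± 25.7 CPM in CD36-positive libraries against 96.2 ± 28.5 CPM in CD36-negative ones (log2 fold change 0.30, adjusted p = 0.478). About 49.6% of its 50-base windows also occur in the overlapping gene Prelid1, so its counts are uncertain. Rab12, which sends transferrin receptors to lysosomes, was at 54.7 and 53.3 CPM in CD36-positive libraries 1 and 3 and at 19.0 to 32.3 CPM in the other 3, against 17.5 to 35.3 CPM in CD36-negative libraries. Its log2 fold change of 0.54 (adjusted p = 0.376) became -0.07 without those 2 libraries.

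Because Rab7b and Rab7 are related, their sequences were compared. Their coding sequences were identical at 383 of 594 aligned bases (64.5%), Rab9 matched Rab7 at 65.7% and Rab7b at 63.5%, and no 50-base stretch of Rab7b occurred in a GENCODE transcript of another gene. The stretch that encodes the nucleotide-binding loop is shown for the 3 genes because it lies in one of the parts Rabs share most. Capitals mark the 26 of 60 positions at which they differ, read from GENCODE vM21 transcripts (GRCm38), coding bases 28 to 87 of Rab7b and Rab7 and 25 to 84 of Rab9.
Rab7b: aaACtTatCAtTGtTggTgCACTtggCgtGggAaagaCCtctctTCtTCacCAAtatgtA
Rab7: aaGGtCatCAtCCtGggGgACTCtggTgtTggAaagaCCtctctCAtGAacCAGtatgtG
Rab9: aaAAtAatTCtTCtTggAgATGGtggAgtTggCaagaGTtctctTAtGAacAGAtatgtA
Even here Rab7 departs from Rab7b at 19 bases and Rab9 from Rab7b at 20. Rab7 shares 12.7% of its 50-base windows with other genes, its pseudogene among them, and Rab9 6.2% with a pseudogene of Rab9b.

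The balance between Rab7 and Rab7b within a library, which needs no scaling between libraries, moved with Rab7b. Rab7 had 2.74, 2.69, 3.43, 4.06 and 5.0 times the counts of Rab7b in CD36-positive libraries, against 6.50, 6.08, 7.93, 7.95 and 8.19 times in CD36-negative libraries. All CD36-positive ratios lay below all CD36-negative ones. The mean log2 ratio was 1.80 ± 0.38 in CD36-positive and 2.86 ± 0.20 in CD36-negative libraries, a difference of -1.06 (exact two-sided permutation test, p = 0.00794, adjusted p = 0.111 over 14 pairs). That p is the smallest 5 against 5 libraries allow, so with 14 pairs no single separated pair could pass. Of the 14 pairs of related Rabs tested, 0 passed after adjustment and 4 had an unadjusted p under 0.05.

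**Figure D3:**
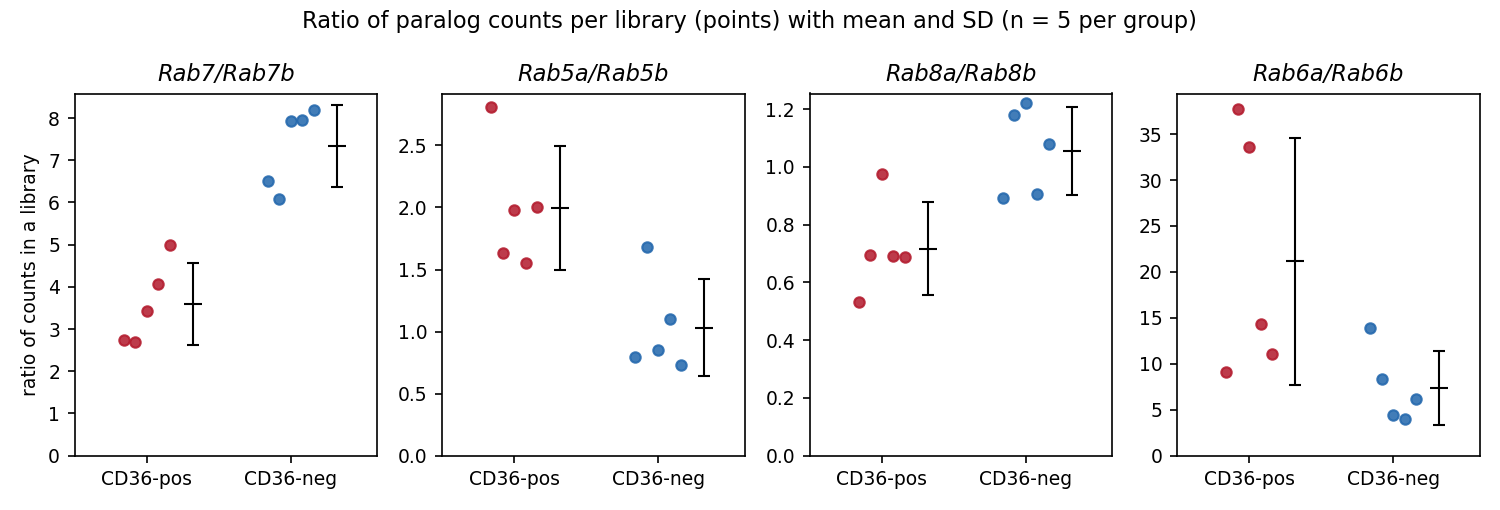
Ratio of the counts of related Rab genes in each library (points), with mean and SD (n = 5 per group), CD36-positive left of CD36-negative, for the 4 pairs with an unadjusted p under 0.05. Rab7 over Rab7b runs from 2.69 to 5.0 in CD36-positive and from 6.08 to 8.19 in CD36-negative libraries without overlap, and the other 3 pairs overlap.

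Of the early endosomal Rabs 0 of 7 passed the test, with 2 at an unadjusted p under 0.05 (Rab5b and Rab21) and 1, Rab5b, called by DESeq2. With 7.36% of all genes called, 0 in a group this small is near that share, here and in the compartments below. Estimates for the forms of Rab5 differed in sign. Rab5a, Rab5b and Rab5c share the role of fusing early endosomes. Rab5a read 102, 90.7, 106, 88.6 and 107 CPM in CD36-positive libraries, against 63.6, 92.0, 74, 89.4 and 72.2 CPM in CD36-negative libraries (log2 fold change 0.34, 95% interval -0.03 to 0.70, adjusted p = 0.283). Rab5b, on chromosome 10 (chr10:128677175-128696264, minus strand), read 36.3, 55.7, 53.6, 57.2 and 53.3 CPM in CD36-positive libraries, against 79.8, 54.9, 87.1, 81.0 and 98.8 CPM in CD36-negative libraries. Only CD36-negative library 2 reached down into the CD36-positive range. The log2 fold change of Rab5b was -0.65 (SE 0.20, 95% interval -1.08 to -0.22) with an adjusted p of 0.0653, which did not pass, and without CD36-negative library 2 it was -0.76 (adjusted p = 0.0344). The other 9 omissions of 1 library gave adjusted p of 0.0696 to 0.163, with log2 fold changes of -0.69 to -0.56. Rab5c averaged 34.7 ± 9.97 CPM in CD36-positive libraries against 46.0 ± 15 CPM in CD36-negative ones (log2 fold change -0.41, adjusted p = 0.388).

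Set against each other per length, Rab5a made up 40.4 ± 5.55% of Rab5 mRNA in CD36-positive libraries and 27.7 ± 7.59% in CD36-negative libraries (SD, n = 5 each). Rab5b made up 26.1 ± 4.43% in CD36-positive and 34.7 ± 5.27% in CD36-negative libraries, and Rab5c 33.4 ± 7.29% in CD36-positive and 37.6 ± 8.10% in CD36-negative libraries. The ratio of Rab5a to Rab5b counts was 1.55 to 2.81 in CD36-positive libraries and 0.731 to 1.68 in CD36-negative libraries, a log2 difference of 0.99 (exact two-sided permutation test, p = 0.0238, adjusted p = 0.111). Library 2 of the CD36-negative group alone, at 1.68, reached the CD36-positive range. Rab5a against Rab5c differed by 0.75 (p = 0.0635, adjusted p = 0.148, same exact test), and Rab5b against Rab5c by -0.24 (p = 0.476). The same loop of the 3 genes shows how far their messages can be told apart, with capitals at the 16 of 60 positions that differ (coding bases 64 to 123 of Rab5a and Rab5b, 67 to 126 of Rab5c).
Rab5a: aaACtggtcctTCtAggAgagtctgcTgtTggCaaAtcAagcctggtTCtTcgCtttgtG
Rab5b: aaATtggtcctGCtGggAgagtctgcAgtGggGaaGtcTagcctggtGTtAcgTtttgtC
Rab5c: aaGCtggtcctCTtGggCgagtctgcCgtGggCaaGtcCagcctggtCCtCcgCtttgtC
Over the whole coding sequence Rab5a matched Rab5b at 74.7% and Rab5c at 74.3% of aligned bases, and Rab5b matched Rab5c at 77.7%. No 50-base window was common to any 2 of them. Of the windows of Rab5b, 9.80% occur in Gm13991. For Rab5a 4.03% occur in other genes, led by Pp2d1 and with the pseudogene Rab5a-ps among them.

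Rab21, which moves integrins through early endosomes, had the largest positive estimate of the family, and it rested on 2 libraries. It read 44.3, 9.48, 67.3, 24.2 and 18.3 CPM in CD36-positive libraries, against 13.6, 24.4, 21.6, 14.1 and 11.6 CPM in CD36-negative libraries. Only CD36-positive libraries 1 and 3 lay above the CD36-negative range. The log2 fold change was 0.94 (SE 0.42, adjusted p = 0.204), and 0.02 without libraries 1 and 3. Rab22a, an endosomal sorting Rab, averaged 25.6 ± 5.88 CPM in CD36-positive libraries against 19.0 ± 3.66 CPM in CD36-negative ones (0.43, adjusted p = 0.367), and its relative Rab31 131 ± 19.8 CPM in CD36-positive cells against 121 ± 37.1 CPM in CD36-negative cells (0.11, adjusted p = 0.831). Of the 50-base windows of Rab20, 22.9% lie in an overlapping transcript. Rab20, a phagosome Rab induced by interferon gamma in macrophages, averaged 80.6 ± 25.9 CPM in CD36-positive libraries against 62.9 ± 8.97 CPM in CD36-negative ones (0.36, adjusted p = 0.400).

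The promoters of Rab21 and Rab5a are shown because, of 48 Rab genes with a RefSeq promoter entry, these 2 (4.17%) carry the CLEAR element, the E-box CACGTG with GT before it and AC after it, a sequence bound by TFEB and its relatives at lysosomal genes. Of 27025 genes with an entry, 0.255% carry it in the same 250 bases upstream of the start. Both sequences are from RefSeq GRCm38.p6, chr10:115315592-115315841 on the minus strand for Rab21 and chr17:53478984-53479233 on the plus strand for Rab5a. Capitals mark matches on either strand to the CLEAR element, the E-box (which lies inside it), the cAMP response element TGACGTCA, the GC box GGGCGG and the CCAAT box. In Rab5a an E-box also lies outside the CLEAR element, near the start of the sequence shown.
Rab21: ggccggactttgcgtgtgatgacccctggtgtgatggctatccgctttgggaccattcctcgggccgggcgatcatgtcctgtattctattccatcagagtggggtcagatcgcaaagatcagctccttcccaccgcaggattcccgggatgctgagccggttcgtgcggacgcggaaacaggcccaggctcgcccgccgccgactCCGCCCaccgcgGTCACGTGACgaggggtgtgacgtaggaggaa
Rab5a: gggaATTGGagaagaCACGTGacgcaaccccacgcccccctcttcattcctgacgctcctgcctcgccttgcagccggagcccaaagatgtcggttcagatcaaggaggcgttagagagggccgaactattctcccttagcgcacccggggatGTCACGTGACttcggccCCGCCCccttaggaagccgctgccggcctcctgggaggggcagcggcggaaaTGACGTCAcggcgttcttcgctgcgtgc
The other motifs were found at these shares of the 48 Rab promoters and of all promoters: the E-box 8.33% and 6.04%, the cAMP response element 4.17% and 1.6%, the GC box 68.8% and 33%, the CCAAT box 45.8% and 34.5%, and the PU.1 site GAGGAAGT 4.17% and 2.42%. The Rab43 promoter held 2 GC boxes and the Rab9 promoter none of the 6 motifs. A match says only that these letters are present, and neither Rab21 nor Rab5a passed the test between the groups.

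Rab43, a Golgi Rab that in mouse dendritic cells is also known for cross-presentation of antigen, was lower in CD36-positive cells. It lies on chromosome 6 (chr6:87788853-87812164, minus strand). It read 56.0, 54.6, 31.4, 71.4 and 77.2 CPM in CD36-positive libraries, against 97.4, 77.0, 130, 102 and 102 CPM in CD36-negative libraries. The groups met at one point, where CD36-positive library 7 stood at the level of CD36-negative library 2. The log2 fold change was -0.80 (SE 0.23, 95% interval -1.30 to -0.31, edgeR adjusted p = 0.044).

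The call for Rab43 was not firm. With 1 library left out (number 1, 2 or 3 of the CD36-positive group, or number 1, 4, 7 or 8 of the CD36-negative group) the adjusted p was 0.0612 to 0.131, with log2 fold changes of -0.82 to -0.65, and without CD36-positive libraries 1 and 3 together it was -0.59 (adjusted p = 0.102). About 74.5% of the 50-base windows of Rab43 also belong to Gm45140, a gene model that runs across it, so reads of the overlap may be counted for either. The dendritic cell markers moved in the same direction, with summed levels of 82.9 to 163 CPM in CD36-positive libraries against 923 to 1400 CPM in CD36-negative ones. Over CD36-negative libraries 1, 2, 4, 7 and 8 they summed to 1400, 1390, 1160, 923 and 1040 CPM. Monocyte, neutrophil and T and NK cell markers were also lower in CD36-positive libraries. The part of any of these lists in the Rab43 difference was not tested.

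**Figure D4:**
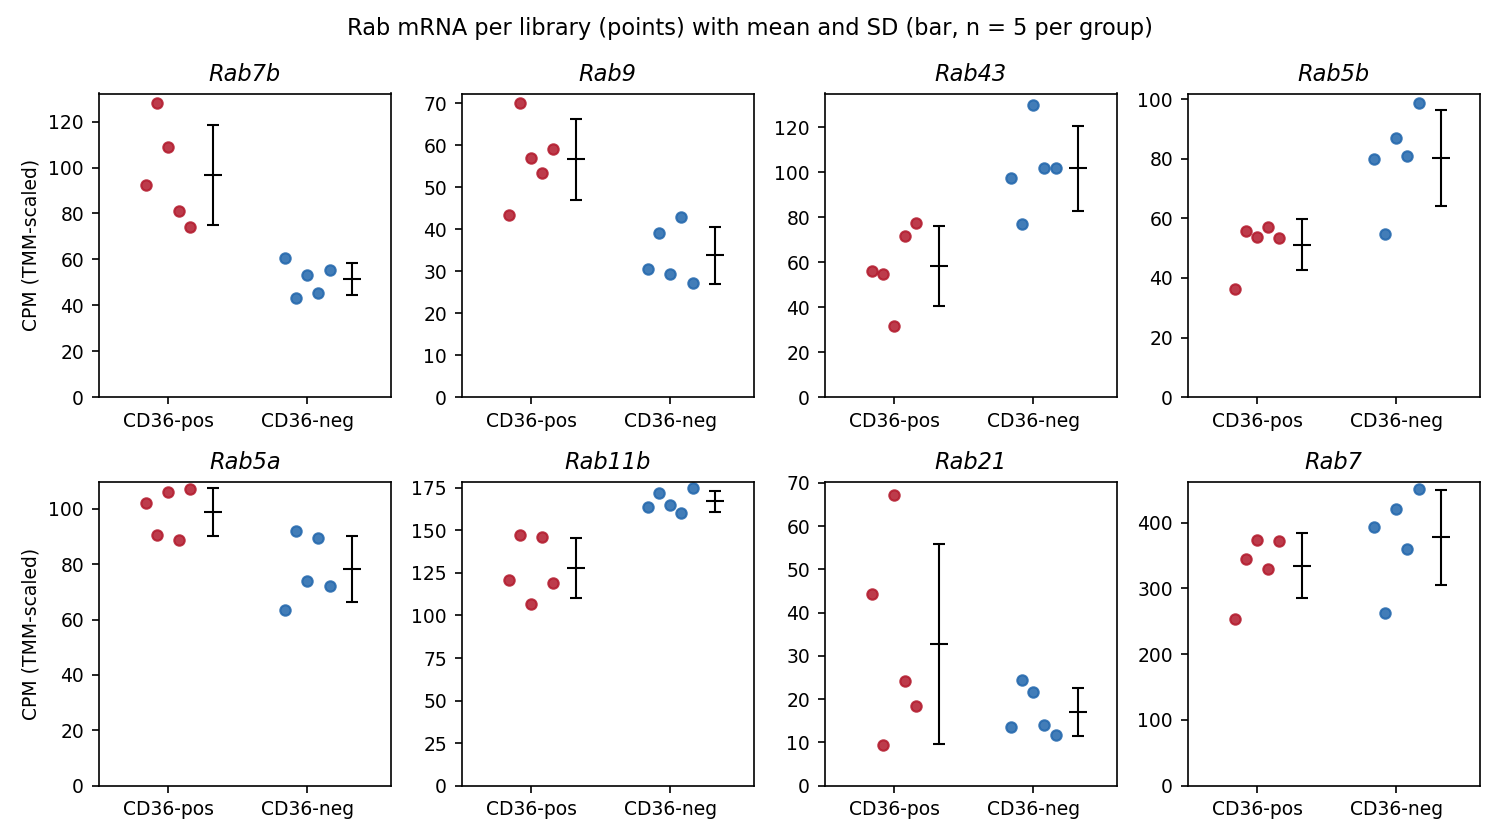
Level (CPM on TMM-scaled library sizes, y axis from 0) of 8 Rab genes in each library (points), with mean and SD (n = 5 per group), CD36-positive left of CD36-negative. Rab7b and Rab9 are separated upwards and Rab11b downwards, Rab43 nearly so at 31.4 to 77.2 against 77.0 to 130, and Rab21 shows 2 high CD36-positive libraries at 44.3 and 67.3.

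Of the recycling Rabs 0 of 6 passed, and 1, Rab11b, had an unadjusted p under 0.05. Their median log2 fold change was -0.26, beside 0.29 for the 8 late endosomal and lysosomal Rabs, a difference that was not tested. Rab11b, of the recycling endosome, read 121, 147, 107, 146 and 119 CPM in CD36-positive libraries, against 164, 172, 165, 160 and 175 CPM in CD36-negative libraries. Its groups did not overlap, and the CD36-negative libraries were very close to each other, yet the log2 fold change of -0.38 (SE 0.16, 95% interval -0.72 to -0.05) had an adjusted p of 0.164. Some 13.6% of its 50-base windows occur elsewhere, mainly in a pseudogene. Its relative Rab11a averaged 236 ± 39.8 CPM in CD36-positive libraries against 275 ± 30.8 CPM in CD36-negative ones (-0.22, adjusted p = 0.499), and the ratio of Rab11a to Rab11b differed by 0.17 on the log2 scale (exact permutation p = 0.421). Rab4b, of fast recycling, averaged 53.0 ± 18.8 CPM in CD36-positive cells against 65.1 ± 7.62 CPM in CD36-negative cells (-0.29, adjusted p = 0.526), with 58.1% of its windows shared with the overlapping Gm21983. Rab4a was near the floor, at 0 to 2.25 CPM in CD36-positive libraries against 0.731 to 2.34 CPM in CD36-negative ones. Rab14 had one of the narrowest intervals of the family, a log2 fold change of -0.02 with a 95% interval of -0.33 to 0.30.

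Rabs of the path from the Golgi to the surface gave 0 of 5 past the threshold, and 1, Rab8a, had an unadjusted p under 0.05. Rab8a, of exocytosis and cilia, read 91.7, 141, 117, 102 and 126 CPM in CD36-positive libraries, against 157, 137, 149, 147 and 178 CPM in CD36-negative libraries, overlapping only where CD36-positive library 2 (141) exceeded CD36-negative library 2 (137) (log2 fold change -0.41, 95% interval -0.77 to -0.05, adjusted p = 0.166). Rab8b averaged 165 ± 32.6 CPM in CD36-positive cells against 148 ± 27.3 CPM in CD36-negative cells (0.15, adjusted p = 0.704). The ratio of Rab8a to Rab8b was thus 0.532 to 0.977 in CD36-positive and 0.892 to 1.22 in CD36-negative libraries, a log2 difference of -0.57 (exact two-sided permutation test, p = 0.0238, adjusted p = 0.111). Rab10, which carries the glucose transporter GLUT4 in fat cells, averaged 171 ± 28.4 CPM in CD36-positive libraries against 148 ± 28.9 CPM in CD36-negative ones (0.21, adjusted p = 0.570).

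Among the 12 tested Rabs of the endoplasmic reticulum and Golgi, Rab43 was the 1 that passed. Rab6b, a mainly neuronal form of the Golgi Rab6, had the largest negative estimate among genes that averaged 3 or more on the log2 CPM scale. It read 12.7, 1.81, 3.58, 7.55 and 9.75 CPM in CD36-positive libraries, against 8.41, 10.1, 21.9, 24.8 and 14.7 CPM in CD36-negative libraries (log2 fold change -1.18, 95% interval -2.22 to -0.14, adjusted p = 0.168). The groups overlapped at CD36-positive libraries 1 and 7. Photoreceptor markers, retinal RNA outside the sorted cell type, were summed over 14 genes. The sums were 171, 838, 291, 167 and 96.2 CPM in CD36-positive libraries, with 511, 1860, 1150, 305 and 561 CPM in CD36-negative ones. They were highest in library 2 of each group, where Rab6b read 1.81 CPM (CD36-positive) and 10.1 CPM (CD36-negative). Their part in the Rab6b values was not tested. Rab6a averaged 105 ± 20.5 CPM in CD36-positive libraries against 98.1 ± 12.2 CPM in CD36-negative ones (0.10, adjusted p = 0.808), and the ratio of Rab6a to Rab6b differed by 1.43 (exact permutation p = 0.0317, adjusted p = 0.111). Other genes, led by Mrpl48, hold 19.0% of the 50-base windows of Rab6a.

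Rab1a, which sends cargo out of the endoplasmic reticulum, read 335, 365, 443, 318 and 426 CPM in CD36-positive libraries, against 290, 261, 285, 369 and 310 CPM in CD36-negative libraries (0.32, 95% interval -0.03 to 0.66, adjusted p = 0.284). CD36-negative library 7 alone lay inside the CD36-positive range. Rab1b averaged 144 ± 45.6 CPM in CD36-positive cells against 154 ± 39.2 CPM in CD36-negative cells (-0.10, adjusted p = 0.850), Rab2a 151 ± 24.8 CPM in CD36-positive cells against 131 ± 13.4 CPM in CD36-negative cells (0.20, adjusted p = 0.536), and Rab2b 14.7 ± 6.49 CPM in CD36-positive cells against 18.4 ± 2.64 CPM in CD36-negative cells (-0.32, adjusted p = 0.630). About 57.0% of the 50-base windows of Rab2b also occur in other genes, led by Gm43766 and Tox4, so its counts are uncertain. Rab18, known on lipid droplets and the endoplasmic reticulum, averaged 97.0 ± 19.9 CPM in CD36-positive libraries against 118 ± 28.9 CPM in CD36-negative ones (-0.28, 95% interval -0.71 to 0.15, adjusted p = 0.472).

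Rabs of secretory granules and lysosome-related organelles gave 0 of 7, also at an unadjusted p under 0.05. DESeq2 and limma called 0 of the recycling, surface and granule Rabs as well. Rab32, the second highest Rab per length, which in mouse macrophages also restricts intracellular bacteria, read 297, 245, 223, 225 and 235 CPM in CD36-positive libraries, against 164, 217, 174, 243 and 218 CPM in CD36-negative libraries (0.27, 95% interval -0.08 to 0.62, adjusted p = 0.381). Its relative Rab38 stayed at 3.39 CPM or below in all 10 libraries. Rab3d, of granule release, averaged 33.8 ± 18.2 CPM in CD36-positive cells against 42.0 ± 8.54 CPM in CD36-negative cells (-0.31, adjusted p = 0.644), and Rab3a, of synaptic vesicles, 10.2 ± 3.13 CPM in CD36-positive cells against 13.2 ± 4.44 CPM in CD36-negative cells (-0.36, adjusted p = 0.630). Rab37, of secretory granules, had the lowest estimate of all, -1.76, with a 95% interval of -3.70 to 0.18 at 0 to 2.03 CPM in CD36-positive libraries against 1.15 to 4.26 CPM in CD36-negative ones. The remaining pair, Rab28 and the Hedgehog regulator Rab23, placed with the cilium, had log2 fold changes of 0.32 and -0.09 (adjusted p = 0.431 and 0.943).

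The 12 genes that did not pass the filter had low counts in most libraries. The floor, 3 counts in a library, corresponds to 0.238 to 0.558 CPM. Some stood above it in single libraries, as Rab3c at up to 14.1 CPM in CD36-positive libraries. In CD36-negative libraries Rab42 reached 3.86 CPM and Rab44 3.51 CPM. Summed over 5 libraries, Rab17 had 0 counts in CD36-positive and 1 in CD36-negative cells, and Rab26 0 in CD36-positive and 10 in CD36-negative cells. Rab33a had 4 counts in CD36-positive and 0 in CD36-negative cells, and Rab40b 9 in CD36-positive cells, all in 1 library, and 0 in CD36-negative cells. Rab15, Rab25, Rab27b, Rab39b and Rab9b had 3 to 11 counts in CD36-positive and 3 to 38 in CD36-negative cells. Rab42 had 32 counts in CD36-positive and 69 in CD36-negative cells. Rab44, of mast cell granules, had 15 counts in CD36-positive and 97 in CD36-negative cells, with up to 42 in 1 library. For Rab3c the counts were 106 in CD36-positive and 34 in CD36-negative cells, and 76 of the 106 came from CD36-positive library 1. No fold change is given for these genes.

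The wider Rab machinery, 9 lists with 255 tested genes, gave 17 genes past the threshold (6.67%, against 7.36% of all genes), 3 higher and 14 lower in CD36-positive cells, with a median log2 fold change of -0.06. Without CD36-negative library 4 the count was 11. Of 54 GEFs, 1 was higher and 3 were lower (7.41% in all). Rin3, a GEF of Rab5, stood at 30.3 to 53.5 CPM in CD36-positive libraries and 66.7 to 116 CPM in CD36-negative libraries (log2 fold change -1.20, SE 0.22, adjusted p = 0.00212), without overlap. Dennd3, a GEF of Rab12, averaged 3.04 ± 1.86 CPM in CD36-positive cells against 23.2 ± 8.23 CPM in CD36-negative cells (-2.90, adjusted p = 0.00363), and Trappc5, a subunit of the TRAPP complexes that activate Rab1, 23.4 ± 6.20 CPM in CD36-positive cells against 45.5 ± 9.81 CPM in CD36-negative cells (-0.96, adjusted p = 0.0195). The GEF-like Fam45a was higher, 72.2 ± 8.81 CPM in CD36-positive libraries against 43.8 ± 9.28 CPM in CD36-negative ones (0.72, adjusted p = 0.0348), a call lost without library 2, 3 or 4 of the CD36-positive or 1, 4 or 7 of the CD36-negative group (adjusted p 0.0512 to 0.121). Trappc5 lost its call without CD36-negative library 4 (adjusted p = 0.0698).

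Of 35 GAPs, 3 were lower (8.57%, against 4.74% of all genes) and 0 higher. Tbc1d10c, a leukocyte inhibitor of calcineurin and Ras as well as a Rab GAP, averaged 3.04 ± 2.05 CPM in CD36-positive libraries against 38.3 ± 17.9 CPM in CD36-negative ones (log2 fold change -3.68, adjusted p = 4.89e-05). Tbc1d4, the Akt substrate that controls GLUT4 traffic, averaged 7.27 ± 5.73 CPM in CD36-positive cells against 58.8 ± 20.6 CPM in CD36-negative cells (-2.98, adjusted p = 0.000992), and Rabgap1l 6.40 ± 3.65 CPM in CD36-positive cells against 26.7 ± 6.91 CPM in CD36-negative cells (-2.07, adjusted p = 0.0041). Of 14 genes of prenylation and membrane recycling, Rabggtb, the catalytic subunit of the enzyme that prenylates Rabs, was the 1 called (7.14%, against 7.36% of all genes in either direction). It read 62.2, 32.9, 50.1, 30.1 and 24.7 CPM in CD36-positive libraries, against 16.8, 24.0, 15.7, 14.2 and 21.8 CPM in CD36-negative libraries (1.11, SE 0.28, adjusted p = 0.0228). CD36-positive libraries 1 and 3 were highest, and the call was lost without either of them or without library 1, 4 or 7 of the CD36-negative group (adjusted p 0.0573 to 0.0752).

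Of 50 Rab effectors, 7 were lower (14%, against 4.74% of all genes) and 0 higher, a departure that was not tested. The 3 with the smallest p were Rab11fip1, an adaptor of Rab11, at 3.19 ± 1.22 CPM in CD36-positive libraries against 19.5 ± 6.52 CPM in CD36-negative ones (log2 fold change -2.61, adjusted p = 0.000472), Uvrag, a partner in the class III phosphatidylinositol 3-kinase, at 57.1 ± 5.97 CPM in CD36-positive cells against 110 ± 24.0 CPM in CD36-negative cells (-0.95, adjusted p = 0.00486), and Lrrk2, the kinase that phosphorylates Rab8 and Rab10 among others, at 2.40 ± 2.05 CPM in CD36-positive cells against 15.5 ± 4.63 CPM in CD36-negative cells (-2.71, adjusted p = 0.00588). The other 4 were Optn, Mical1, Unc13d and Sytl2, with log2 fold changes of -3.25 to -0.83. Without number 1, 2 or 8 of the CD36-negative group the count of effectors was 4. Optn and Mical1 kept their calls in 8 of the 10 omissions, Unc13d in 4 and Sytl2 in 1, with adjusted p of 0.0561 to 0.102 in the rest. Retromer, retriever and WASH had 1 of 20 called, the sorting nexin Snx2 at 298 ± 36.2 CPM in CD36-positive libraries against 189 ± 26.6 CPM in CD36-negative ones (0.65, adjusted p = 0.0212), a call lost without library 2 or 7 of the CD36-positive or 2, 4 or 8 of the CD36-negative group (adjusted p 0.0517 to 0.0618). Endosomal SNAREs had 1 of 20, Stx11, which T and NK cells need for granule release, at 4.87 ± 2.75 CPM in CD36-positive cells against 25.6 ± 5.41 CPM in CD36-negative cells (-2.38, adjusted p = 0.00552). The HOPS and CORVET tethers that work with Rab7 and Rab5 gave 0 of 10, with 2 at an unadjusted p under 0.05. The ESCRT complexes gave 0 of 27, with 4 at that level. Over all genes these shares were 7.36% and 21.3% in edgeR. Small counts in the retromer, SNARE, tether and ESCRT lists are therefore not by themselves results about those lists. DESeq2 called 0 of the tethers and 2 ESCRT genes, and limma 0 tethers and 1 ESCRT gene.

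Among other small GTPases, 0 of 25 Arf and Arl genes passed in edgeR, DESeq2 or limma, 1 of them at an unadjusted p under 0.05. Of all genes, 7.36% passed in edgeR and 21.3% had an unadjusted p under 0.05, and the difference from these shares was not tested. Rin3, Dennd3, the 3 GAPs, Rab11fip1, Uvrag, Lrrk2 and Stx11 passed in each of the 20 alternative fits. The marker lists of dendritic cells, monocytes, neutrophils and T and NK cells were lower in the same libraries, at the levels given above, and their part in the lower calls of the Rab machinery was not tested.

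**Figure D5:**
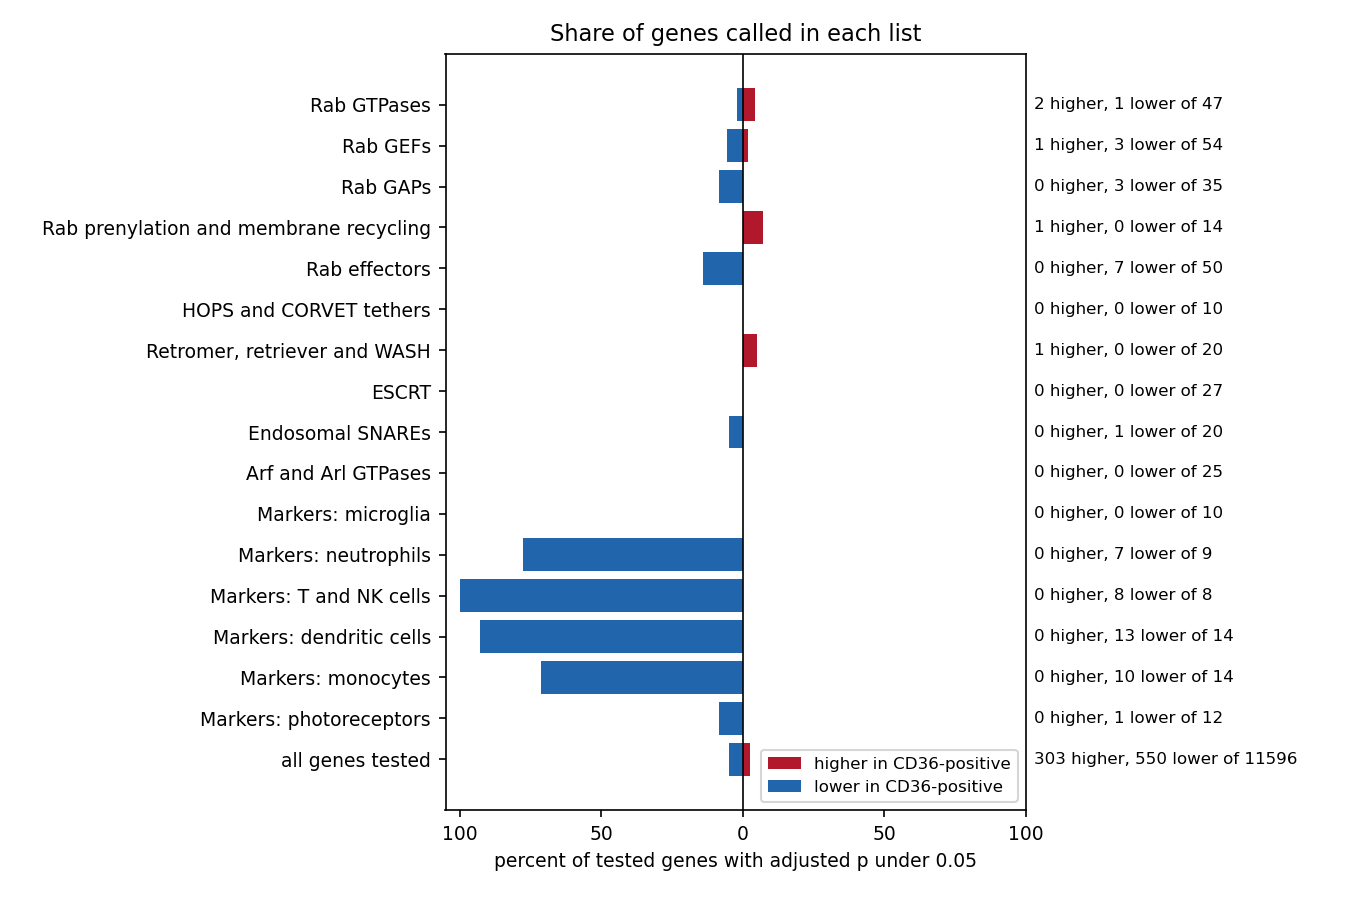
Percent of tested genes with an adjusted p under 0.05 in each list, higher in CD36-positive cells to the right and lower to the left, with the counts beside each bar and all 11596 genes at the bottom. Each list of the Rab machinery has 0 to 14% of its genes called in all, with the Rab effectors highest, while the lists of leukocyte markers reach far to the left, with 13 of 14 dendritic cell and 8 of 8 T and NK cell markers lower.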

How the data were processed

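RNA from 5 CD36-positive and 5 CD36-negative samples was analysed, grouped by the description label, whose replicate numbers are used (the titles number the samples differently). Values are expected counts (estimated counts, not normalized) per gene symbol as deposited by the authors, 91.9% of them exactly whole with zeros included and 87.9% of those above 0. Tools named in the submitters' processing notes are fastp 0.18.0, HISAT2 2.1.0, Bowtie2 2.2.8 and StringTie 1.3.1, with build mm10, but the notes as given here assign no roles, and the handling of reads shared between genes is not stated. Of 22008 lines, 8 malformed and 131 repeated ones were dropped, the damage recurring every 1024 bytes. The lines of Rab44 and Rab5c span such an edge, a limit that also bears on the Rab5 shares and on the ratios with Rab5c. Another 27 symbols read as dates and are not reported.

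Counts were rounded, filtered (filterByExpr by group, minimum count 10), TMM-scaled and tested with edgeR 4.0.16 (R 4.3.3) by group, adjusted over 11596 genes. CPM uses TMM-scaled totals, and lengths are union exons of GENCODE vM21. Paralog ratios (pseudocount 0.5) were tested by exact permutation. Alternatives included DESeq2 1.42.0 and limma 3.58.1. The scripts were tested on simulated data. Intervals are 95%. Floors cover counting error only.

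Members and lists were chosen with earlier results of these data known. Genes named were those past the threshold, the 8 highest per length, up to 6 per direction with the largest change at an average log2 CPM of at least 3, tested paralogs, members counted in 1 group only, and up to 3 called genes per list. Other genes named were chosen after their values were seen. Replicate numbers were not treated as pairing samples. No single-cell or spatial data were used here, and 1 gene list and 1 marker gene are not reported here.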

Additional observations from a re-analysis of the deposited data

Results flagged for a closer look

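In 4 Rab genes, 1 library lay far from the other 4 of its group, by the gap between it and its nearest neighbour relative to the whole range. Rab5b stood at 36.3 CPM in CD36-positive library 1, against 53.3 to 57.2 CPM in the other CD36-positive libraries. Rab6a stood at 70.2 CPM in CD36-positive library 2, against 108 to 123 CPM. Rab31 stood at 56.1 CPM in CD36-negative library 2, against 127 to 147 CPM in the other CD36-negative libraries. Rab20 stood at 47.2 CPM in CD36-negative library 7, against 64.0 to 68.6 CPM. Over the named and tested members, 60 groups of 5 values were looked at, and chance flags about 1 in 20. In each case the 1 library was lower than the rest.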

How the results depend on the processing

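The count of Rab genes past the threshold, 3, was 1 to 3 when each library was left out in turn, the lowest value arising on omission of number 2 or 3 of the CD36-positive group or number 1, 4 or 8 of the CD36-negative group. The labels do not say whether same-numbered libraries came from the same animals. Deviations of same-numbered libraries correlated at 0.029 to 0.133 by the description and -0.021 to 0.133 by the title. Each correlation ran over genes between 2 libraries. Differently numbered libraries were not compared in this way, so the values cannot decide whether the samples are paired. With a replicate block the count was 0 by the description number and 1 by the title number, and that of the machinery lists was 10 by the description number, against 17. The description block kept only numbers present in both groups, so it left out CD36-positive library 3 and CD36-negative library 8. The title block left out none. The effect of the description block therefore cannot be told apart from the loss of those libraries. Within the lists, effectors numbered 7 in the test as reported, 3 with the description block, 4 without CD36-positive libraries 1 and 3 and 11 by DESeq2. GEFs numbered 4, with 2 by that block, without those libraries or without CD36-negative library 4. Prenylation genes numbered 0 in place of 1 in the same settings as the GEFs, and retromer genes with the block. SNAREs gave 2 in place of 1 with either block, the Y-linked covariate or without CD36-positive library 7. The ESCRT count moved in 6 settings, to 2 in place of 0 without a filter and to 1 without CD36-positive library 3 or 7, among others. Tethers gave 1 in place of 0 without CD36-positive libraries 1 and 3. Over single omissions the machinery count ran from 11 (without CD36-negative library 4) to 19, and the count of all genes from 554 (without CD36-negative library 4) to 955, against 853. DESeq2's Wald test called 1276 genes and 4 Rab genes, the fourth being Rab5b (adjusted p = 0.0275). The median log2 fold change over the Rab genes, -0.086, was -0.19 without a filter and 0.102 with a filter of 10 CPM in 5 libraries, each over a different number of genes, and -0.143 to 0.006 over single omissions. Over 20 alternatives, Rab7b passed in 19 (adjusted p 0.000326 to 0.0544, above 0.05 with the description block), Rab9 in 9 (0.013 to 0.138) and Rab43 in 10 (0.0135 to 0.131), all with unchanged direction. In 12 alternatives, 0 paralog pairs passed. In the exact permutation test with all libraries, the smallest adjusted p open to a single pair is 0.111, so this 0 says little. Of the 20 alternatives, 2 were added after seeing the data, leaving out lines across block edges and a Y-linked covariate, and both gave 3 Rab genes. Depth limits the 12 untested genes and those of a few CPM.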
